A study of Mus musculus with 12 samples.

Results

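The PIWI proteins and the factors that make or use their small RNAs were followed as 10 genes, Piwil1, Piwil2, Piwil4, Mael, Mov10l1, Ddx4, Asz1, Pld6, Tex15 and Gtsf1. They were chosen by name, without Tudor-domain genes, and all 10 were found among the 23235 genes of the table. RNA came from spermatocytes of C57BL/6 mice, sorted by fluorescence with their purity checked, at 2 successive stages of the first meiotic prophase, pachytene and leptotene/zygotene (LZ). The 4 groups of 3 libraries were Rnaseh1 knock-out pachytene, wild-type (WT) pachytene, Rnaseh1 knock-out LZ and WT LZ. The age of the mice, the deleted part of Rnaseh1 and the promoter of any Cre are not given in the sources used here, and nothing says that replicates came from separate animals, so the p-values measure only the spread between these libraries.

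PIWI proteins are Argonaute relatives that bind piRNAs, small RNAs of the germline that guide them to complementary transcripts. In the mouse testis long precursors are transcribed, unwound, cut near mitochondria and loaded onto PIWI proteins in perinuclear granules. Early piRNAs act against transposons, and a later and much larger wave, the pachytene piRNAs, appears once spermatocytes reach pachytene under the transcription factor A-MYB. RNase H1, the enzyme named by the knock-out labels, degrades RNA in RNA:DNA hybrids.

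Values are FPKM (fragments per length of transcript and total of mapped fragments), which correct for gene length. The authors put the libraries on a common scale with ERCC spike-ins, RNA added in known amounts. Depth is unknown, because the table holds no counts. On this scale the median gene moved between groups. The median log2 change of the 15400 genes tested was 0.37 for knock-out against WT at pachytene, -0.43 for the same comparison at LZ, 1.64 for pachytene against LZ in WT and 2.29 in knock-out libraries. Median-ratio scaling is therefore used as a second scale, in which each library is divided by the median ratio of its genes to their geometric mean over all libraries. A gene was called at a Benjamini-Hochberg adjusted p under 0.05 in limma over all genes tested.

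Rnaseh1 itself did not separate the genotypes in the direction of the labels. It read 77.4, 68.9 and 94.3 in the pachytene libraries labelled knock-out, against 52.7, 51.7 and 56.8 in WT pachytene libraries. At LZ it read 11.02, 18.3 and 14.8 in libraries labelled knock-out, against 16.1, 20.5 and 16.8 in WT libraries. A value per gene includes exons outside a deleted part, so it does not check the genotype, and libraries are called KO-labelled below. Neither difference was called (limma's adjusted p = 0.0638 at pachytene and 0.407 at LZ). Most stage markers followed the stage labels after median-ratio scaling. In KO-labelled cells 10 of 10 pachytene markers were higher at pachytene than at LZ. Of 10 LZ markers 9 were lower there and 1 was higher. In WT cells 8 of 10 pachytene markers were higher at pachytene, and of 10 LZ markers 7 were lower and 1 was higher. Libraries within a group correlated across genes at 0.967 or more, except in KO-labelled LZ, where r was 0.923 to 0.952. Markers of other testis cells were present, and their levels stand beside the results they move with.

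Of the 5 members called higher in KO-labelled pachytene libraries on the spike-in scale, only Mael kept its call after median-ratio scaling. Promoter windows are shown for these 5. Each runs from 250 bases before to 50 after the annotated start (RefSeq, build GRCm38.p6, by symbol, since the files use mm9). Capitals mark the letters AACNGNC, the core of sites bound by MYB family factors such as A-MYB, or CACGTG, the E-box of basic helix-loop-helix factors, on either strand.
Piwil1, chr5:128735996-128736295, plus strand: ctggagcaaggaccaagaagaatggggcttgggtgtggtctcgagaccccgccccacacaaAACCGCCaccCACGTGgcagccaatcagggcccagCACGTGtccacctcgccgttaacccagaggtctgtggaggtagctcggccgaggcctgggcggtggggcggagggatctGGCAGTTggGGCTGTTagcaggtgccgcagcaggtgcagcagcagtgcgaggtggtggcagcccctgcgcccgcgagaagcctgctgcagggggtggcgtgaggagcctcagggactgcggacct
Mael, chr1:166238695-166238994, minus strand: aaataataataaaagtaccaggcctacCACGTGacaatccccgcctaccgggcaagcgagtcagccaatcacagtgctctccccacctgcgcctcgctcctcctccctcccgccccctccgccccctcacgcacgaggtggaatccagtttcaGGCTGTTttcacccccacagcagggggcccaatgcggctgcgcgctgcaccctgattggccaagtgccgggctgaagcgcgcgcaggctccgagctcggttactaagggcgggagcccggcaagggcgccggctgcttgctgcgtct
Ddx4, chr13:112652261-112652560, minus strand: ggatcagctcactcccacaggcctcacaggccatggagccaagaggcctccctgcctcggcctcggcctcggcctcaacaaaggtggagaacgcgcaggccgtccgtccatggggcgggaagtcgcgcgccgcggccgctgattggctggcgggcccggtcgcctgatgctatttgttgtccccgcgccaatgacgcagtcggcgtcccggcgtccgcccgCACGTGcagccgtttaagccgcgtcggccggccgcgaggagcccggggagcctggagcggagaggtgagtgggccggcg
Pld6, chr11:59787608-59787907, minus strand: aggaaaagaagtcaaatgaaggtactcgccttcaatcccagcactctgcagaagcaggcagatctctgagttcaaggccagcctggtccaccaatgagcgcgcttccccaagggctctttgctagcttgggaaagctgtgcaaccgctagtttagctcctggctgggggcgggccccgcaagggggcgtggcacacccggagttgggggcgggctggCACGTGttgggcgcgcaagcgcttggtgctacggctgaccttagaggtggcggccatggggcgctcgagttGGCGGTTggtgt
Gtsf1, chr15:103430378-103430677, minus strand: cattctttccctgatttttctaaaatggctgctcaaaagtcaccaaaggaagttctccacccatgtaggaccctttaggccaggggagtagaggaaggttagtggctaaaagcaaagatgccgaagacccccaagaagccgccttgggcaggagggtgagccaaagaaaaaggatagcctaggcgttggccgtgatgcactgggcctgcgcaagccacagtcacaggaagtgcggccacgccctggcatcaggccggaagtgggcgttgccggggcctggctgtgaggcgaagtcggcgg

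The table of promoters holds 10 windows for 8 of the 10 members, with 2 each for Piwil4 and Pld6, and none for Piwil2 or Tex15. CACGTG was found in 5 of the 10 windows, those of Piwil1, Mael, Mov10l1 and Ddx4 and the Pld6 window shown, against 7.15% of all 32851 windows of the same length. The Piwil1 window holds it 2 times. AACNGNC was found in 5 of the 10 windows, in Piwil1, Mael and Mov10l1 and in both of Pld6, against 32.8% of all windows. The windows with CACGTG were GC-rich, at 62.3% to 72.0% GC, against a median of 52.7% over all windows. The windows of Gtsf1, Asz1 and Piwil4 hold neither motif. These are letters in sequence, and no binding was measured.

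**Figure D1:**
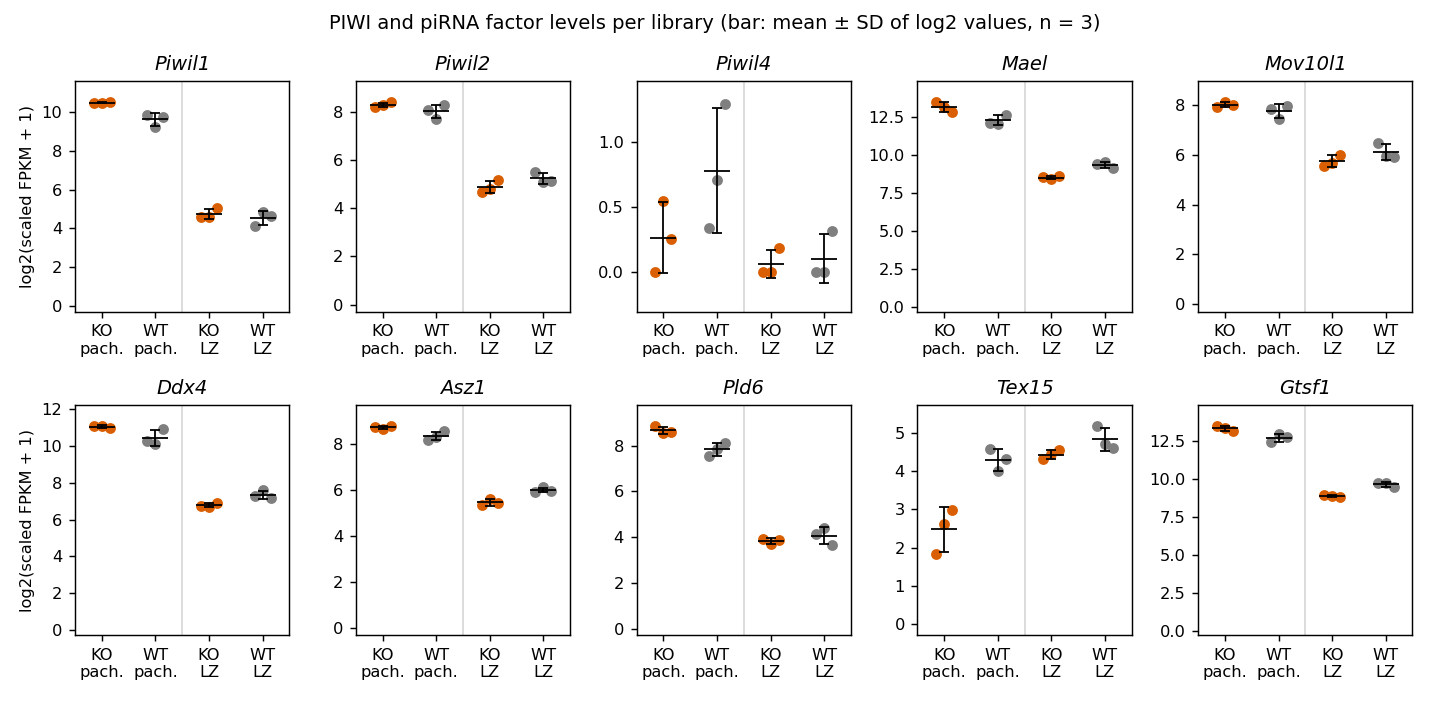
Level of each of the 10 members as log2(spike-in-scaled FPKM + 1) in every library (points), with the mean and SD of the 3 log2 values per group; orange is KO-labelled and grey is WT. Each panel has its own axis. Tex15 is the member whose KO-labelled pachytene libraries, at 2.57 to 6.95 FPKM, lie below all others.

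The stage comparison in WT cells asks how the pathway is set up as cells enter pachytene. All 9 members tested except Tex15 were called, and all 8 were higher at pachytene. Calls of this kind are common on the spike-in scale, where 80.9% of all genes were called higher and 0.487% lower. Median-ratio scaling left 6 members higher and put 1 lower, against 20.4% and 17.8% of all genes. Over the 9 members tested the median log2 change was 2.91 on the spike-in scale, against 1.64 over all genes, and 0.85 after median-ratio scaling. Markers of other cells moved with stage. Leydig cell markers summed to 2343 to 8741 FPKM in WT pachytene and 3.74 to 17.1 FPKM in WT LZ libraries, and 8 of 8 were called higher after median-ratio scaling. Peritubular and endothelial markers summed to 539 to 705 FPKM in WT pachytene and 1.72 to 29.9 FPKM in WT LZ libraries, with 5 of 6 higher after that scaling. Blood and macrophage markers summed to 101 to 592 FPKM in WT pachytene and 1.67 to 20.5 FPKM in WT LZ libraries, with 4 of 7 higher. Other lists did not move upward as a whole. After median-ratio scaling 5 of 10 spermatogonial markers were lower and 2 higher, and 1 of 7 Sertoli cell markers tested was lower. Of 10 round spermatid markers 0 were called after that scaling. The Leydig markers Hsd3b1, Hsd3b6, Hsd17b3 and Lhcgr were listed at 0 in at least 1 LZ library of each genotype. The part of these cells in the members' levels was not tested.

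Piwil1, a PIWI protein that binds pachytene piRNAs, had the largest stage change of the members. It read 924, 605 and 870 FPKM in WT pachytene libraries and 16.3, 27.7 and 24.0 FPKM in WT LZ libraries, a ratio of means of 35.3. The groups lay far apart, and in rank Piwil1 stood at 687 to 1166 among the genes of WT pachytene libraries and at 3621 to 5598 in WT LZ libraries. Its log2 change was 5.09 (SE 0.24, limma's adjusted p = 2.36e-08), higher than that of 99.7% of genes tested, and 3.07 after median-ratio scaling. In KO-labelled cells the log2 change between the stages was 5.75 (SE 0.24), and 2.80 after median-ratio scaling.

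Piwil2, the PIWI protein active from the fetal germline onward, was present at both stages. It had 271, 211 and 312 FPKM in WT pachytene libraries and 44.4, 33.8 and 33.9 FPKM in WT LZ libraries. Its log2 change was 2.79 (SE 0.21, limma's adjusted p = 1.07e-07), or 0.76 after median-ratio scaling, called both times, and with equal library totals it was 0.47 and not called (adjusted p = 0.0982). Piwil4, a nuclear PIWI protein known from fetal germ cells where it directs DNA methylation of transposons, did not pass the filter. It read 0.265, 0.631 and 1.44 FPKM in WT pachytene libraries, and in WT LZ libraries it was listed at 0 in replicates 1 and 2 and at 0.248 FPKM in replicate 3. KO-labelled libraries held 0, 0.458 and 0.192 FPKM at pachytene, and at LZ it was listed at 0 in replicates 1 and 2 and at 0.137 FPKM in replicate 3. All 12 values were at or below 1.44 FPKM, so Piwil4 was left out of the tests given here. Without a filter it was called higher at pachytene than at LZ in WT (log2 change 0.67, limma's adjusted p = 0.0342). In that fit, on the spike-in scale, 12320 of 23235 genes were called higher. After median-ratio scaling the WT pachytene and WT LZ values of Piwil4 overlapped.

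The makeup of the PIWI pool can be read within each library, where scaling between libraries cancels. Piwil1 made up 73.5% to 77.3% of the summed FPKM of the 3 PIWI genes in WT pachytene libraries and 26.8% to 45.1% in WT LZ libraries. The ratio of Piwil1 to Piwil2 was 4.74, 4.56 and 4.25 in KO-labelled pachytene libraries, against 3.41, 2.86 and 2.79 in WT pachytene libraries. At LZ this ratio was 0.912, 0.866 and 0.895 in KO-labelled libraries, against 0.367, 0.821 and 0.707 in WT libraries. At both stages the KO-labelled libraries lay above all WT libraries. How often ratios of other gene pairs do so was not computed. Single genes did so after median-ratio scaling in 23.0% of cases at pachytene and 9.12% at LZ. The ratio is a description of 2 members and no test was made.

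**Figure D2:**
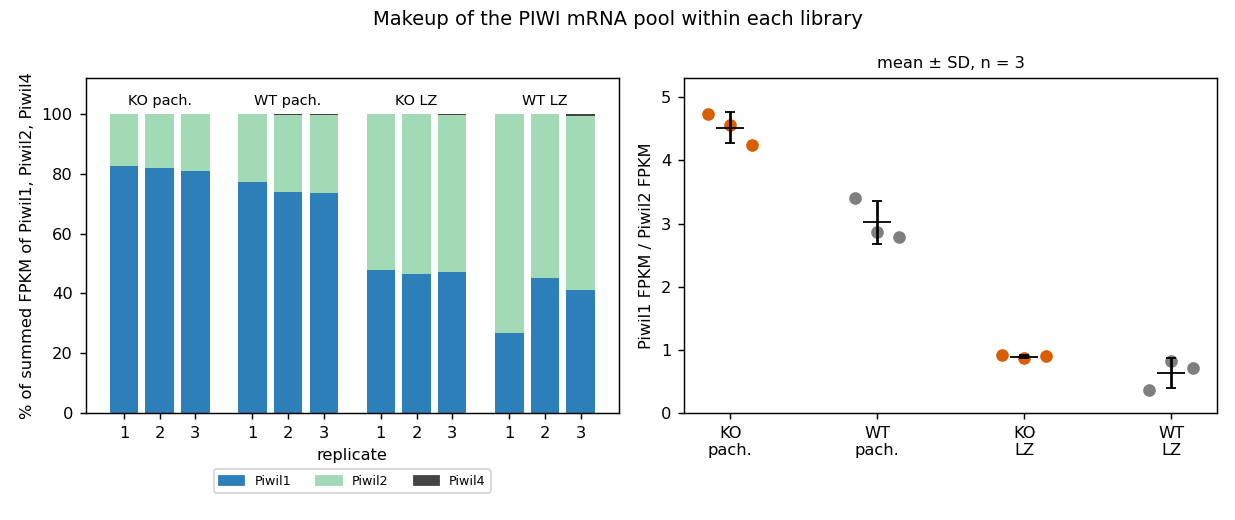
Left, the percent of the summed FPKM of Piwil1, Piwil2 and Piwil4 taken by each gene in every library; right, the ratio of Piwil1 to Piwil2 FPKM per library (points) with mean and SD of 3 libraries, orange KO-labelled and grey WT. Piwil1 is the larger part at pachytene, at 73.5% to 82.6%, and the smaller part at LZ, at 26.8% to 47.7%.

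Among the factors upstream of the PIWI proteins, the nuclease Pld6 had the next largest stage change. Pld6, also called MitoPLD, sits on the mitochondrial outer membrane and its fly homolog Zucchini cuts piRNA precursors. It read 184, 231 and 278 FPKM in WT pachytene libraries and 16.8, 19.8 and 11.7 FPKM in WT LZ libraries, with a log2 change of 3.77 (SE 0.23, limma's adjusted p = 3.97e-08) and of 1.77 after median-ratio scaling. Asz1, a mitochondrial anchor of the same granules, was higher on the spike-in scale, at 327 ± 44.2 FPKM in WT pachytene and 63.6 ± 4.59 FPKM in WT LZ libraries (SD, n = 3 each). After median-ratio scaling its log2 change was 0.30 and was not called (limma's adjusted p = 0.230). Mov10l1, the helicase that feeds precursors to the nuclease, had 217 ± 40.1 FPKM in WT pachytene and 69.4 ± 15.7 FPKM in WT LZ libraries, and its direction depended on the scale. Its log2 change was 1.63 on the spike-in scale, -0.40 after median-ratio scaling (limma's adjusted p = 0.0576) and -0.68 with equal library totals (adjusted p = 0.0191).

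The granule and effector factors Ddx4, Mael and Gtsf1 were called higher at pachytene on the spike-in scale, after median-ratio scaling and with equal library totals. Ddx4, the mouse Vasa helicase, read 1227, 1088 and 1911 FPKM in WT pachytene libraries and 155, 190 and 143 FPKM in WT LZ libraries. Mael, needed in mice for transposon silencing and pachytene piRNAs, read 4450, 4194 and 6360 FPKM in WT pachytene libraries and 672, 735 and 565 FPKM in WT LZ libraries. Gtsf1, a small zinc finger protein that aids PIWI cleavage, read 5589, 7917 and 6940 FPKM in WT pachytene libraries and 855, 848 and 720 FPKM in WT LZ libraries. The log2 changes of these 3 genes were 3.07, 2.91 and 3.07, and 1.02, 0.85 and 1.01 after median-ratio scaling. Gtsf1 and Mael were the most abundant members, with ranks of 64 to 201 for Gtsf1 and 89 to 280 for Mael over all 12 libraries.

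Tex15 did not rise with the others. It encodes a large nuclear protein that mice need to repair meiotic DNA breaks and, in fetal germ cells, to methylate transposons together with the PIWI proteins. It read 23.0, 14.97 and 18.9 FPKM in WT pachytene libraries and 35.2, 25.4 and 23.5 FPKM in WT LZ libraries. The pachytene libraries lay below the LZ libraries, as they did for 0.864% of all genes, and the log2 change of -0.54 (SE 0.30) was not called on the spike-in scale (limma's adjusted p = 0.112). It was -2.48 after median-ratio scaling, a call of lower (adjusted p = 6.06e-05). Its rank was 7995 to 8816 in WT pachytene libraries and 3460 to 4026 in WT LZ libraries.

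**Figure D3:**
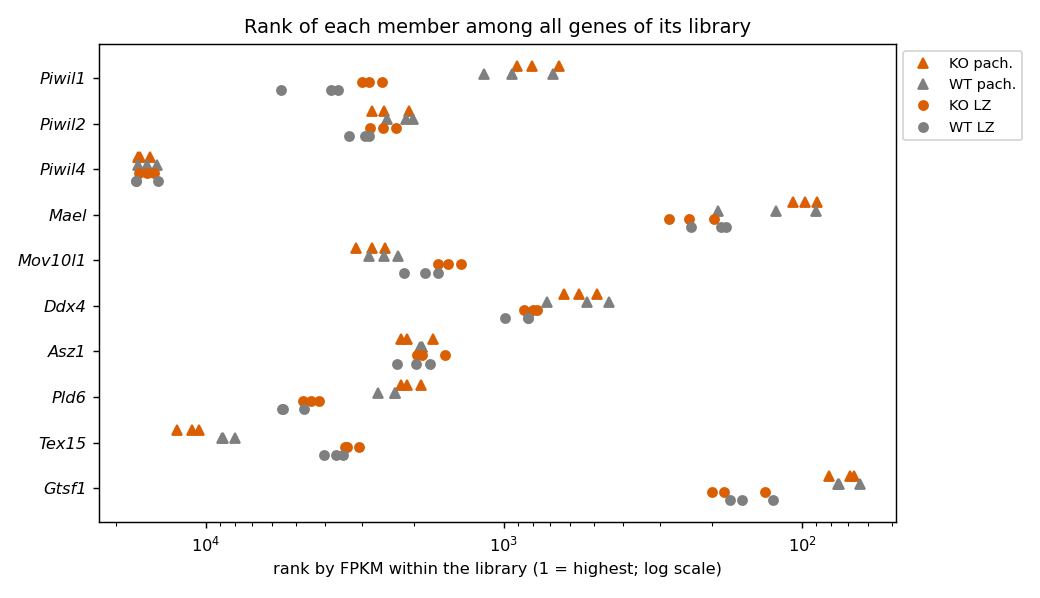
Rank of each member by FPKM among the 23235 genes of each library, on a log axis with the highest-ranked genes at the right; triangles are pachytene and circles LZ, orange KO-labelled and grey WT. Tex15 ranks at 7995 to 12520 at pachytene and at 3060 to 4026 at LZ, while Piwil1 ranks at 653 to 1166 at pachytene.

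Pachytene against LZ in KO-labelled cells asks whether the same shift occurs under the knock-out label. Of 9 members tested 8 were higher and Tex15 was lower, against 76.8% of all genes higher and 2.83% lower. Median-ratio scaling left 6 higher and put 2 lower, against 31.7% and 29.3% of all genes. The log2 changes on the spike-in scale were 4.85 for Pld6, 4.63 for Mael, 4.45 for Gtsf1, 3.42 for Piwil2 and 3.25 for Asz1. After median-ratio scaling they were 1.93, 1.64, 1.46, 0.47 and 0.29 for the same genes, and Asz1 was not called (limma's adjusted p = 0.199). With equal library totals Piwil2 was at -0.13 and Asz1 at -0.31, neither of them called. After median-ratio scaling Mov10l1 was the only member tested that turned, to a log2 change of -0.69 (limma's adjusted p = 0.00215). On the spike-in scale Mov10l1 was at 2.27. Tex15 read 2.57, 5.09 and 6.95 FPKM in KO-labelled pachytene libraries and 18.8, 20.9 and 22.4 FPKM in KO-labelled LZ libraries. Its log2 change was -1.96 (SE 0.30, limma's adjusted p = 3.01e-05), with 0.623% of genes at a lower change, and it was -4.48 after median-ratio scaling. This comparison and the one in WT share no library. Markers of other cells moved with stage here too. Leydig cell markers summed to 1372 to 5517 FPKM in KO-labelled pachytene and 3.38 to 89.2 FPKM in KO-labelled LZ libraries, and blood and macrophage markers to 283 to 461 FPKM and 1.38 to 2.73 FPKM in the same groups. After median-ratio scaling 9 of 10 spermatogonial, 7 of 7 Sertoli cell and 6 of 10 round spermatid markers tested were lower at pachytene. Their part in the members' levels was not tested.

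KO-labelled against WT at pachytene asks what differs where RNase H1 is said to be missing. Tex15 was lower and 5 members were higher, namely Piwil1, Mael, Pld6, Ddx4 and Gtsf1, on the spike-in scale. Over all genes 24.6% were called higher and 14.3% lower there. Mael was still called higher and Tex15 lower after median-ratio scaling, against 3.57% and 9.62% of all genes. With equal library totals Tex15 alone was called, as lower, where 1414 of 15400 genes were called lower and 42 higher. The median-ratio call of Mael was lost in 6 of 6 fits that left out 1 library, with log2 changes of 0.44 to 0.62 and adjusted p of up to 0.178 by limma. The median log2 change of the 9 members tested was 0.62, against 0.37 over all genes, and 0.27 after median-ratio scaling.

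Tex15 read 2.57, 5.09 and 6.95 FPKM in KO-labelled pachytene libraries, against 23.0, 14.97 and 18.9 FPKM in WT pachytene libraries. All KO-labelled libraries lay below all WT libraries, as they did for 18.0% of all genes, with a ratio of means of 0.257. The log2 change was -1.82 (SE 0.30, limma's adjusted p = 0.00273) and -1.83 after median-ratio scaling. It was called in 20 of 20 alternative settings, which included leaving out each library in turn on both scales, with log2 changes of -2.08 to -1.29. Its rank was 10576 to 12520 in KO-labelled and 7995 to 8816 in WT pachytene libraries. At LZ Tex15 read 18.8, 20.9 and 22.4 FPKM in KO-labelled and 35.2, 25.4 and 23.5 FPKM in WT libraries, a log2 change of -0.40 (SE 0.30) that was not called (limma's adjusted p = 0.365) and became 0.17 after median-ratio scaling.

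The difference between the knock-out effects on Tex15 at the 2 stages was -1.42 on the log2 scale (SE 0.43, limma's adjusted p = 0.0209), and -1.99 after median-ratio scaling (adjusted p = 0.0197). Lower effects of this kind were called for 3.49% of all genes. After median-ratio scaling the share was 4.36%, and higher effects were called for 2.37%. On the spike-in scale this call was lost without WT LZ replicate 2 (adjusted p = 0.0508), WT pachytene replicate 1 (adjusted p = 0.0531) or KO-labelled pachytene replicate 1 (adjusted p = 0.0519). The log2 difference stayed between -1.37 and -1.10 in these fits. After median-ratio scaling it was lost without WT LZ replicate 2 (log2 difference -1.92, adjusted p = 0.0557) and kept in 11 of 12 such fits.

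Markers of other cells moved with Tex15 at pachytene. Of 10 spermatogonial markers 8 were lower in KO-labelled than in WT pachytene libraries, Id4 was higher and Gfra1 was not called. Dmrt1, a spermatogonial transcription factor, averaged 7.09 ± 5.09 FPKM in KO-labelled and 51.9 ± 14.2 FPKM in WT pachytene libraries (SD, n = 3 each). The summed level of that list was 380 to 578 FPKM in KO-labelled and 589 to 702 FPKM in WT pachytene libraries. Of 10 LZ markers 4 were lower and 1 higher, the lower ones being Dmc1, Rec8, Prss50 and Rhox13. The summed LZ list was 10647 to 10988 FPKM in KO-labelled and 7766 to 10460 FPKM in WT pachytene libraries. Of 10 round spermatid markers 9 were lower, with sums of 1780 to 9588 FPKM in KO-labelled and 37500 to 45473 FPKM in WT pachytene libraries. Of 6 peritubular and endothelial markers 3 were lower and 1 higher, with sums of 175 to 220 FPKM in KO-labelled and 539 to 705 FPKM in WT pachytene libraries. Of 7 Sertoli cell markers tested 1 was lower, with sums of 514 to 576 FPKM in KO-labelled and 795 to 1096 FPKM in WT pachytene libraries. Among the defining markers, Lin28a, Rhox13, Cnn1 and Amh were listed at 0 in at least 1 KO-labelled pachytene library. Amh was also listed at 0 in at least 1 WT pachytene library. The part of these cells in the level of Tex15 was not tested, and in bulk samples fewer cells of a type and less RNA per cell cannot be told apart.

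**Figure D4:**
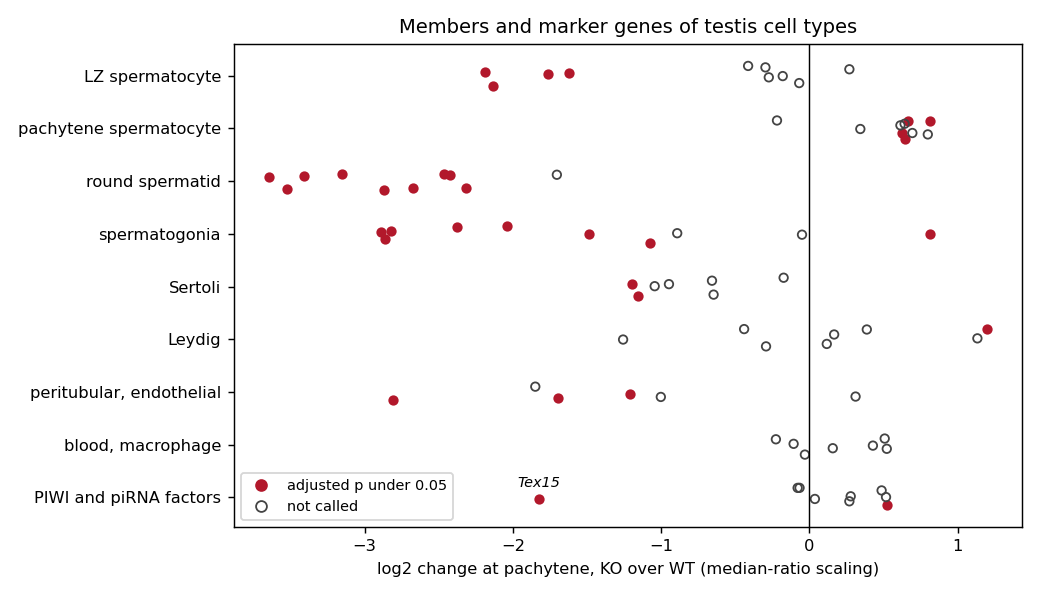
Log2 change of single genes at pachytene, KO-labelled over WT, after median-ratio scaling, for markers of 8 cell types and for the 9 PIWI and piRNA factors tested; filled red points were called. Tex15 lies at -1.83, and the other members lie between -0.08 and 0.52. Markers called lower were 9 of 10 round spermatid, 7 of 10 spermatogonial, 4 of 10 LZ, 3 of 6 peritubular and endothelial and 2 of 7 Sertoli. Those called higher were 4 of 10 pachytene, 1 of 10 spermatogonial and 1 of 8 Leydig.

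Of the 5 members that were higher, Piwil1, Mael and Pld6 had the larger changes. Piwil1 read 1420, 1436 and 1443 FPKM in KO-labelled and 924, 605 and 870 FPKM in WT pachytene libraries. Mael read 11198, 8893 and 7272 FPKM in KO-labelled and 4450, 4194 and 6360 FPKM in WT pachytene libraries. Pld6 read 462, 380 and 385 FPKM in KO-labelled and 184, 231 and 278 FPKM in WT pachytene libraries. For each of these 3 genes all KO-labelled libraries lay above all WT libraries, as they did for 36.4% of all genes. Their log2 changes were 0.86, 0.87 and 0.84, or 0.52, 0.52 and 0.49 after median-ratio scaling, where the groups still did not overlap, as for 23.0% of all genes.

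Gtsf1 read 11633, 10610 and 9152 FPKM in KO-labelled and 5589, 7917 and 6940 FPKM in WT pachytene libraries, a log2 change of 0.63 (limma's adjusted p = 0.0232). Ddx4 read 2158, 2165 and 1974 FPKM in KO-labelled and 1227, 1088 and 1911 FPKM in WT pachytene libraries, a log2 change of 0.62 (limma's adjusted p = 0.0397). The call of Ddx4 was lost with no filter (adjusted p = 0.0584) and with only the groups compared (adjusted p = 0.0675). After median-ratio scaling their groups overlapped and their log2 changes were 0.28 and 0.27. The other members tested, Piwil2, Mov10l1 and Asz1, had log2 changes of 0.28, 0.27 and 0.38 and were not called. After median-ratio scaling these were -0.07, -0.08 and 0.04, so Piwil2 and Mov10l1 changed sign.

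The calls of higher members were lost, all or in part, when some single libraries were left out. The number of members called at pachytene, Tex15 included, was 6 with all libraries, and also without KO-labelled replicate 3 or WT replicate 3. It was 1 without KO-labelled replicate 1, 1 without KO-labelled replicate 2, 3 without WT replicate 1 and 2 without WT replicate 2. The number of genes called over the whole table moved in the same way, with 1371, 1348, 2165 and 2179 genes in those fits, against 5980 with all libraries. Of 10 pachytene markers 8 were higher and 0 lower in KO-labelled libraries, with sums of 64999 to 104686 FPKM in KO-labelled and 37205 to 47656 FPKM in WT pachytene libraries, and their part in the higher members was not tested.

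**Figure D5:**
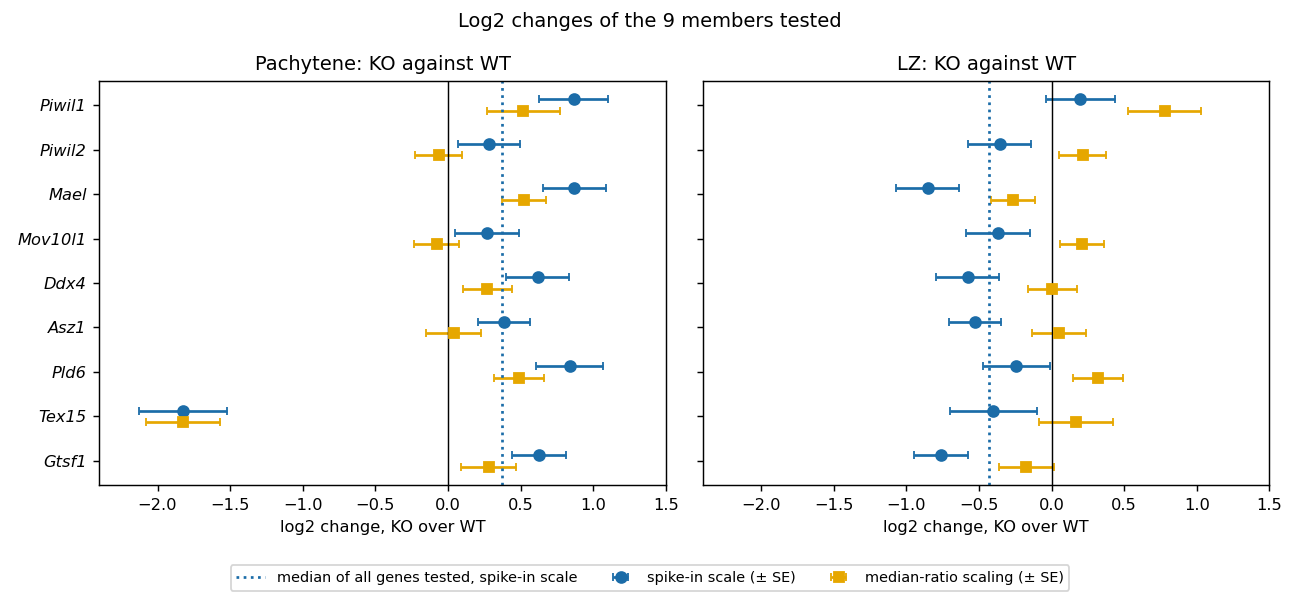
Log2 change, KO-labelled over WT, of the 9 members tested at pachytene (left) and LZ (right), on the spike-in scale (blue circles) and after median-ratio scaling (yellow squares), each with its limma SE; the dotted line is the median of the 15400 genes tested. Tex15 at pachytene, at -1.82 and -1.83, is the lowest point on either scale.

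The same comparison at LZ asks what differs before pachytene. Mael and Gtsf1 were lower, and the other 7 members tested were not called. Over all genes 12.9% were called lower and 0.136% higher. Mael read 367, 333 and 388 FPKM in KO-labelled and 672, 735 and 565 FPKM in WT LZ libraries, a log2 change of -0.85 (SE 0.22, limma's adjusted p = 0.0278). Gtsf1 read 492, 482 and 452 FPKM in KO-labelled and 855, 848 and 720 FPKM in WT LZ libraries, a log2 change of -0.76 (SE 0.18, limma's adjusted p = 0.0239). KO-labelled libraries lay below all WT libraries for both, as they did for 36.5% of all genes.

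Neither gene was called after median-ratio scaling, with log2 changes of -0.27 and -0.17, and 0 members were then called against 1.08% of all genes. Both calls were also lost with no filter, with only the groups compared, and without WT LZ replicate 1 or 2, or KO-labelled LZ replicate 2 or 3, and only 7, 4, 343 and 88 genes of the whole table were called in the fits without a library, against 2013 with all libraries. Ddx4, Asz1 and Tex15 also had all KO-labelled LZ libraries below all WT libraries and were not called. Ddx4 averaged 108 ± 9.01 FPKM in KO-labelled and 163 ± 24.3 FPKM in WT libraries, and Asz1 43.9 ± 4.605 FPKM in KO-labelled and 63.6 ± 4.59 FPKM in WT libraries (SD, n = 3 each). Round spermatid markers summed to 799 to 5581 FPKM in KO-labelled and 14777 to 32022 FPKM in WT LZ libraries, with 5 of 10 of these markers called lower. Pachytene markers, 7 of 10 of them called lower, summed to 1962 to 2212 FPKM in KO-labelled and 3151 to 4851 FPKM in WT LZ libraries. These marker calls were on the spike-in scale, and after median-ratio scaling 0 markers of either list were called. The part of either list in these values was not tested.

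Piwil1 was the member that stood highest relative to other genes at LZ. It read 22.7, 23.3 and 31.6 FPKM in KO-labelled and 16.3, 27.7 and 24.0 FPKM in WT LZ libraries, a log2 change of 0.20 (SE 0.24, limma's adjusted p = 0.574) above those of 94.0% of genes. After median-ratio scaling KO-labelled libraries lay above all WT libraries, as for 9.12% of all genes, with a log2 change of 0.78 (adjusted p = 0.134). WT LZ replicate 1, with the lowest value, decided the sign on the spike-in scale, since the log2 change was -0.01 without it. Piwil2, Mov10l1 and Pld6 overlapped between the genotypes, with log2 changes of -0.36, -0.37 and -0.24. After median-ratio scaling they were 0.22, 0.21 and 0.32.

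The knock-out effect differed between the stages for 6 of 9 members tested, higher at pachytene for Mael, Gtsf1, Ddx4, Pld6 and Asz1 and lower for Tex15. In this difference 34.9% of all genes were called higher and 3.49% lower, whose median was 0.72. Mael had the largest positive difference, at 1.72 (SE 0.31, limma's adjusted p = 0.00493), and 0.79 after median-ratio scaling (adjusted p = 0.0509). Tex15 was the only one of the 6 that was also called after median-ratio scaling. The number of members called fell to 4 without WT LZ replicate 2, without WT pachytene replicate 1 or without KO-labelled pachytene replicate 1, in each case with Pld6 and Tex15 lost.

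Other genes of the piRNA pathway were taken from a list of 27, of which 24 were found by symbol and all 24 tested. At pachytene, KO-labelled against WT, 12 of the 24 were higher and 4 lower, against 24.6% and 14.3% of all genes. After median-ratio scaling Tcfl5 and Tdrd7 were higher and 4 genes lower, Kif17, Morc1, Parn and Tex19.1, against 3.57% and 9.62% of all genes. Of 9 Tudor-domain genes in the list 7 were among the higher ones, and 1 after median-ratio scaling. Tcfl5, a transcription factor of pachytene piRNA genes, averaged 1508 ± 216 FPKM in KO-labelled and 653 ± 141 FPKM in WT pachytene libraries (SD, n = 3 each), a log2 change of 1.22 (limma's adjusted p = 0.00677). Its log2 change was 0.87 after median-ratio scaling (adjusted p = 0.0170), and with equal library totals it was 0.64 and not called (adjusted p = 0.0775).

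The 4 genes lower on the spike-in scale were Morc1 and Dnmt3l, which act in fetal transposon silencing, the kinesin gene Kif17 and the poly(A) ribonuclease gene Parn. Morc1 averaged 7.03 ± 4.86 FPKM in KO-labelled and 19.2 ± 2.93 FPKM in WT pachytene libraries, a log2 change of -1.48 (limma's adjusted p = 0.0165) and of -1.55 after median-ratio scaling. Kif17 averaged 4.43 ± 1.58 FPKM in KO-labelled and 14.1 ± 4.55 FPKM in WT pachytene libraries, a log2 change of -1.47 (adjusted p = 0.0140) and of -1.50 after median-ratio scaling. Dnmt3l averaged 1.17 ± 0.510 FPKM in KO-labelled and 4.78 ± 1.80 FPKM in WT pachytene libraries, a log2 change of -1.39 (adjusted p = 0.0147) that was not called after median-ratio scaling. Without KO-labelled pachytene replicate 1 the calls of Morc1 (adjusted p = 0.0741), Kif17 (adjusted p = 0.0606) and Dnmt3l (adjusted p = 0.0517) were lost. Without KO-labelled replicate 2 those of Morc1 (adjusted p = 0.0652) and Dnmt3l (adjusted p = 0.0576) were lost, and without WT replicate 1 that of Kif17 (adjusted p = 0.0523). Parn and Tex19.1 are outside the rule for named genes and were added after their values were seen, to complete the lists of lower genes.

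Between the stages in WT all 24 other pathway genes were higher at pachytene, against 80.9% of all genes, and median-ratio scaling left 11 higher and put 3 lower, against 20.4% and 17.8%. The 4 largest log2 changes were those of Tdrd1 (4.42), Tdrd5 (4.08), Tdrd6 (3.60) and Tcfl5 (3.59), and after median-ratio scaling these genes were at 2.40, 2.06, 1.58 and 1.55. In KO-labelled cells 22 of 24 were higher, against 76.8% of all genes, and 13 were higher and 4 lower with median-ratio scaling, against 31.7% and 29.3%. On the spike-in scale the same 4 genes led with log2 changes of 5.01, 5.03, 5.57 and 5.06, and after median-ratio scaling they were at 2.07, 2.09, 2.66 and 2.09. At LZ, KO-labelled against WT, 2 of 24 were lower, against 12.9% of all genes, Kif17 (-1.26, limma's adjusted p = 0.0381) and Tdrd12 (-0.70, adjusted p = 0.0425), and 0 after median-ratio scaling. Both were lost without WT LZ replicate 1 or 2 or KO-labelled LZ replicate 2 or 3, and Tdrd12 also without KO-labelled LZ replicate 1, with adjusted p of 0.0649 to 0.147. They were also lost with a pseudocount of 5, with no filter and with only the groups compared. In the last 2 of these fits 0 genes were called by limma and 5345 and 4682 genes had an unadjusted p under 0.05.

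Genes with the most similar profile were sought over the 12 libraries after median-ratio scaling, as the smallest root mean square difference between log2(value + 1) profiles, each centred on its mean, among 12315 genes with a mean of at least 5 FPKM in their highest group. For Piwil1, whose profile has an SD of 1.53, these were Gm8267, Gm6567 and 4921525O09Rik, with differences of 0.20, 0.21 and 0.25 on the log2 scale. The nearest member was Pld6, at 0.65, and the farthest Tex15, at 3.33. For Piwil2, with an SD of 0.35, they were Hipk1, Mphosph9 and Srsf11, at 0.13, 0.15 and 0.15, and the nearest member was Asz1, at 0.27. For Piwil4, with an SD of 0.24 at levels near 0, they were Rsl1d1, Gnpda2 and Ufd1l, at 0.17, 0.17 and 0.18, which says little at such levels. The libraries share stage and genotype, so a small difference is a likeness of group levels.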

How the data were processed

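Amplified cDNA of polyadenylated RNA was sequenced for 12 libraries, which the labels put into 4 groups of 3. The deposited values are FPKM per gene, scaled by the authors with ERCC spike-ins per the file's name. The submitters' processing notes name TopHat2 2.1.1, Cufflinks 2.2.1 and build mm9. The scaling formula, annotation and filters are not given in the sources used here. The table has 4 columns without a name, which were not used. No 2 libraries were identical (0 pairs).

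Values were transformed as log2(value + 1), so changes of low genes are understated. Genes at 1 or more in at least 3 libraries were kept, which left 15400 of 23235 genes and 9 of 10 members. A limma 3.58.1 model (R 4.3.3) took all 12 libraries with a mean for each group and a variance trend, two-sided, with Benjamini-Hochberg adjustment over all genes tested and a threshold of 0.05. The code was tested on simulated data. Alternatives were median-ratio scaling, equal totals, pseudocounts of 0.1 and 5, other filters, only the groups compared, a replicate block, and each library left out. Median-ratio scaling with a library left out was added after seeing the data, for Tex15 and Mael. Members and lists were chosen with earlier results of these data known. Named beyond the members were Rnaseh1, marker genes, up to 4 called pathway genes per comparison with the largest absolute change, and the 3 genes most like each PIWI gene. Reads shared with near-identical or overlapping genes cannot be told apart in these values.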

Additional observations from a re-analysis of the deposited data

Results flagged for a closer look

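The knock-out effect differed between the stages for 6 of 9 members tested and for 6 of the pathway genes named in a comparison. The test was limma's test of the difference itself (pachytene effect minus LZ effect, adjusted p under 0.05). Of all 24 other pathway genes 12 were called higher and 0 lower, against 34.9% and 3.49% of all genes. Tex15 was the member with a negative difference, at -1.42 on the log2 scale (adjusted p = 0.0209 by limma). The positive differences of members were 1.72 for Mael, 1.39 for Gtsf1, 1.19 for Ddx4, 1.08 for Pld6 and 0.91 for Asz1. Those of the 6 named pathway genes were 1.97 for Tdrd6, 1.73 for Tdrd7, 1.47 for Tcfl5, 1.36 for Exd1, 1.30 for Tdrd12 and 0.95 for Tdrd5. The median over all genes was 0.72, and 34.9% of all genes were called higher. After median-ratio scaling only Tex15 was called among the 6 members and all 24 other pathway genes, at -1.99.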

How the results depend on the processing

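Tex15 at pachytene, KO-labelled against WT, kept its call in 20 of 20 alternatives, and the stage calls of the members were kept when each library was left out (8 members called in WT, 9 in KO-labelled cells in each fit). Depth is unknown and limits what low genes such as Piwil4 can show. Without the filter Piwil4 was called higher at pachytene than at LZ in WT (log2 change 0.67, adjusted p = 0.0342 by limma), as were 12320 of 23235 genes. Its values at these stages overlapped after median-ratio scaling. Counts are in the order median-ratio scaling, then equal totals. Members called were 0 and 0 at LZ, 2 and 1 at pachytene and 1 and 1 for the stage difference, and genes called were 166 and 277, 2032 and 1456, and 1036 and 952. For pachytene against LZ in WT genes called were 5883 and 5932. At LZ 1108 genes were called with a pseudocount of 5. With no filter, and with only the groups compared, 0 members and 0 genes were called at LZ by limma, where 5345 and 4682 genes had an unadjusted p under 0.05. Leaving out 1 library gave 0 to 2 members and 4 to 2936 genes at LZ, 1 to 6 members and 1348 to 6952 genes at pachytene, and 4 to 6 members and 3749 to 6445 genes for the stage difference.

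Log2 changes that turned their sign, and whose cause was not tested, were these. At LZ after median-ratio scaling they were 0.22 for Piwil2, 0.21 for Mov10l1, 0.0059 for Ddx4, 0.050 for Asz1, 0.32 for Pld6, 0.17 for Tex15 and 0.28 for Rnaseh1. With equal totals they were 0.31, 0.30, 0.099, 0.14, 0.41, 0.26 and 0.37 for the same genes. Piwil1 was at -0.012 without WT LZ replicate 1, in a range up to 0.35 with other libraries left out. Tex15 was at 0.21, 0.077 and 0.20 after median-ratio scaling without WT LZ replicates 1, 2 and 3, and at 0.19, 0.11 and 0.21 without KO-labelled LZ replicates 1, 2 and 3. At pachytene Piwil2 was at -0.066 and Mov10l1 at -0.079 after median-ratio scaling, and with equal totals Piwil2 was at -0.29, Mov10l1 at -0.30, Asz1 at -0.19 and Rnaseh1 at -0.0052. Between stages in WT Mov10l1 was at -0.40 and -0.68 and Rnaseh1 at -0.44 and -0.70. In KO-labelled cells Mov10l1 was at -0.69 and -1.29 and Rnaseh1 at -0.51 and -1.08, and with equal totals Piwil2 was at -0.13 and Asz1 at -0.31. For the stage difference after median-ratio scaling Piwil1 was at -0.26, Piwil2 at -0.28, Mov10l1 at -0.29, Asz1 at -0.012 and Rnaseh1 at -0.070. With equal totals Piwil1 was at -0.58, Piwil2 at -0.60, Mov10l1 at -0.60, Ddx4 at -0.057, Asz1 at -0.33, Pld6 at -0.15 and Rnaseh1 at -0.38.

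The replicate numbers were not shown to pair the libraries, since 7 of 18 same-number correlations were over 0.1, from -0.17 to 0.26, and 9 of 18 were highest with their own number. With the replicate block 2, 5, 8, 9 and 6 members were called at LZ, at pachytene, between stages in WT and in KO-labelled cells and for the stage difference, against 2, 6, 8, 9 and 6 without it. The calls lost with the block were those of Ddx4 at pachytene (adjusted p = 0.0558 by limma) and of the pathway gene Tdrd12 at LZ (adjusted p = 0.0593). Genes called with the block were 2095, 5398, 12742, 12383 and 5439.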
